A study of Homo sapiens with 11 samples.

Results

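CEP170B, FAM219A, LINC00639, NOG, DDN and MFAP4 are 6 of 38557 annotated genes, selected on the size of the change in their transcript level when PR-957 was added to MI-503 in MOLM-13 leukemia cells. All values of the combination against MI-503 given here for these 6 genes are thus a description and carry no test. All 6 passed the filter on low counts and belong to the 14683 genes tested. Their counts ran from 24 to 4289 fragments in a library, so none of them passed the filter only through the group in which it was high.

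MOLM-13 is a human acute myeloid leukemia line with a rearranged KMT2A gene. Cells were exposed for 72 h to the diluent DMSO (4 libraries), to 1 µM MI-503 (4 libraries), or to 1 µM MI-503 with 100 nM PR-957 (3 libraries, replicates 1, 2 and 4). Cells given both agents are referred to as the combination. MI-503 blocks Menin, a partner protein of KMT2A, and PR-957 (ONX-0914) blocks PSMB8, a catalytic subunit of the immunoproteasome. No group analysed here received PR-957 alone, so its effect was read only on top of MI-503, and all libraries came from a single cell line. Nothing in the labels says whether the replicates were separate cultures, so p-values measure the spread between these libraries, which may be technical.

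The 6 genes have little in common by role. NOG encodes noggin, a secreted protein that binds bone morphogenetic proteins (BMPs) and keeps them from their receptors. BMPs signal through paired receptors to SMAD proteins, which switch on targets such as the ID genes. MFAP4 encodes a secreted glycoprotein of elastic fibres. DDN encodes dendrin, a protein known from neuronal dendrites and from the slit diaphragm of kidney podocytes. CEP170B is a relative of CEP170, a centrosomal and microtubule-binding protein. FAM219A encodes a protein with no well-described function, and LINC00639 is a long noncoding RNA.

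Libraries held 18.9 to 41.2 M counted fragments. Levels are given as CPM, counts scaled to the total of each library, and log2 fold changes are from the edgeR fit with their standard error (SE). Combination replicate 1 stood apart from its group. A chi-square test of counts gave 19.4 and 33.3 per degree of freedom for the pairs that held it, against 1.71 to 5.97 for the 13 other replicate pairs. Counts thus differed by more than counting error in every pair, which does not tell repeat preparations of 1 culture from separate cultures. Such values also grow with depth, and combination replicate 1 was the deepest library (41.2 M). All 7 myeloid markers were detected, with a summed level of 1574 to 1668 CPM in DMSO, 2154 to 2288 CPM in MI-503 and 2260 to 4561 CPM in the combination. In the combination most of that rise was LYZ, the secreted enzyme lysozyme (a mean of 95.2, 376 and 1641 CPM in the same order). LYZ reached 2513 CPM in its highest library. The receptor FLT3 went from 324 to 230 and 193 CPM. In bulk RNA, fewer cells that express a gene and less RNA per cell cannot be told apart.

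FAM219A (chr9:34398184-34458570, hg38, minus strand, 6 merged exons) showed the most even response. It stood at 8.30, 6.62, 8.54 and 7.40 CPM in DMSO replicates 1 to 4 and at 6.67, 6.51, 7.47 and 7.29 CPM in MI-503 replicates 1 to 4. Its level with both agents was 84.0, 78.4 and 84.9 CPM in replicates 1, 2 and 4. The combination libraries lay far above all 8 others, and the DMSO and MI-503 libraries overlapped. The log2 fold change was 3.57 (SE 0.07) for the combination against MI-503, which is 11.8-fold, and 3.41 (SE 0.07) for the combination against DMSO. MI-503 alone gave -0.15 against DMSO, which did not pass (edgeR adjusted p = 0.151). Without DMSO replicate 2 that difference was -0.22 and passed (edgeR adjusted p = 0.0367, range over alternatives 0.0367 to 0.394).

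Of the 6 genes, FAM219A had an entry in the RefSeq table of promoters (GRCh38.p14). Its promoter is shown beside that of its paralog FAM219B, the nearest relative for comparison, whose level in the combination overlapped that in MI-503. Each run covers 250 bases before to 30 bases after the annotated start on the minus strand, FAM219A at chr9:34458541-34458820 and FAM219B at chr15:74906822-74907101. Capitals mark a match to the core of the antioxidant response element, TGACNNNGC, which lies on the opposite strand from base -3 to base 6 of the start.
FAM219A: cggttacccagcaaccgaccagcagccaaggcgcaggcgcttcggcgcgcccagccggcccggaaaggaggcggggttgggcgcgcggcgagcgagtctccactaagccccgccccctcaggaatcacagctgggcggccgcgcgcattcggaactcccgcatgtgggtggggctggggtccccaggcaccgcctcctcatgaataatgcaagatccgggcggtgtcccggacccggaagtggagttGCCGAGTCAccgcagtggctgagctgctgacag
FAM219B: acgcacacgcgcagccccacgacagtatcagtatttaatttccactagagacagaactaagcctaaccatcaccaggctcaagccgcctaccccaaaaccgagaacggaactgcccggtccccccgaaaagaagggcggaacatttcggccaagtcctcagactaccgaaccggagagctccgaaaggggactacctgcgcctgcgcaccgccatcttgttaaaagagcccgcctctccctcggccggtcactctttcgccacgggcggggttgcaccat

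The core was searched on both strands of 300 bases around each start and was found in 13.3% of the 35116 promoters of the table. FAM219A held no match to TGATGNAA (the core of the amino acid response element, in 3.62% of promoters), GAANNTTC (part of a heat shock element, in 6.77%) or CACGTG (an E-box, in 7.26%). FAM219B held none of the 4. These matches describe letters in a window and do not show that a factor binds there. The promoter was 69.6% G and C in FAM219A and 58.9% in FAM219B.

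FAM219B itself stood at 13.1 ± 0.587 CPM in DMSO, 14.5 ± 1.28 CPM in MI-503 and 15.1 ± 0.859 CPM in the combination (mean ± SD, n = 4, 4 and 3). Its log2 fold change was 0.06 (SE 0.08) for the combination against MI-503 and did not pass (edgeR adjusted p = 0.601). For the combination against DMSO it was 0.20 (SE 0.08) and passed (edgeR adjusted p = 0.0367). Those 2 groups did not overlap, beside 60.5% of all tested genes. The MI-503 and combination libraries of FAM219B overlapped.

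CEP170B (chr14:104865268-104896757, plus strand, 23 merged exons) had a larger fold rise than FAM219A, and a larger spread within the combination. It stood at 2.36, 2.21, 2.18 and 1.99 CPM in DMSO replicates 1 to 4 and at 1.11, 1.28, 1.28 and 1.19 CPM in MI-503 replicates 1 to 4. Its level with both agents was 36.1, 21.6 and 19.7 CPM in replicates 1, 2 and 4. None of the 3 groups overlapped, with MI-503 lowest and the combination highest. These levels rest on 24 to 44 fragments in the MI-503 libraries and on 430 to 1530 fragments in the combination. The log2 fold change against MI-503 was 4.41 (SE 0.20), which is 21.3-fold, and it was 4.04 without combination replicate 1, the library with the highest level. Against DMSO the combination stood at 3.57 (SE 0.19).

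CEP170B was lower in MI-503 than in DMSO. The log2 fold change of MI-503 against DMSO was -0.84 (SE 0.26, edgeR adjusted p = 0.0115), lower in 4 of 4 MI-503 libraries than in any DMSO library. The call was lost with limma-voom (adjusted p = 0.121, range over alternatives 6.81e-06 to 0.121). CEP170, the paralog, stood at 2.00 ± 0.403, 1.82 ± 0.296 and 1.94 ± 0.0872 CPM in the 3 groups in the same order. Its change of 0.12 (SE 0.19) for the combination against MI-503 did not pass (edgeR adjusted p = 0.626), and CEP170 lies on 2 contigs of the annotation, where reads can be split. The 6 genes themselves lie on 1 contig each.

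LINC00639 (chr14:38749339-38916882, minus strand, 5 merged exons) had the largest fall of the 4 genes that fell in the combination against MI-503. It stood at 10.9, 15.2, 11.4 and 12.7 CPM in DMSO replicates 1 to 4 and at 18.5, 17.6, 22.5 and 21.7 CPM in MI-503 replicates 1 to 4. Its level with both agents was 3.52, 4.52 and 3.13 CPM in replicates 1, 2 and 4. The 3 groups did not overlap, and their order was combination, DMSO, MI-503 from low to high. The log2 fold change was -2.45 (SE 0.14) against MI-503 and -1.77 (SE 0.15) against DMSO. LINC00639 was higher in MI-503 than in DMSO, by 0.68 on the log2 scale (SE 0.11, edgeR adjusted p = 7.97e-05), higher in 4 of 4 MI-503 libraries than in any DMSO library. The MI-503 libraries stand in both comparisons with opposite sign, so a gene chosen on the second is more likely to show the opposite sign in the first, as LINC00639 and CEP170B do, and nothing is read from that.

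NOG (chr17:56593699-56595611, plus strand, 1 exon) had the widest spread of the 6 in the combination. It stood at 11.4, 9.19, 12.2 and 12.8 CPM in DMSO replicates 1 to 4 and at 8.42, 9.97, 12.7 and 11.1 CPM in MI-503 replicates 1 to 4. Its level with both agents was 4.20, 2.91 and 1.26 CPM in replicates 1, 2 and 4. DMSO and MI-503 overlapped and the combination lay below both. The highest combination library held 3.29 times the level of the lowest, which rests on 34 fragments. The log2 fold change was -1.85 (SE 0.24) against MI-503 and -1.96 (SE 0.24) against DMSO. It became -2.43 without combination replicate 1 and -1.55 without combination replicate 4, and against DMSO it ran from -2.50 to -1.62 when single libraries were left out. MI-503 alone gave -0.11 (SE 0.19), which did not pass (edgeR adjusted p = 0.653).

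DDN (chr12:48995149-49001773, minus strand, 3 merged exons) fell in steps. It stood at 48.1, 61.8, 47.4 and 50.6 CPM in DMSO replicates 1 to 4 and at 37.4, 37.9, 35.3 and 33.9 CPM in MI-503 replicates 1 to 4. Its level with both agents was 13.6, 13.9 and 9.52 CPM in replicates 1, 2 and 4. No groups overlapped, and the order from high to low was DMSO, MI-503, combination. In MI-503 against DMSO, DDN fell by 0.52 on the log2 scale (SE 0.09, edgeR adjusted p = 0.000169), lower in 4 of 4 libraries. The combination stood at -1.55 (SE 0.11) against MI-503 and at -2.07 (SE 0.11) against DMSO. For DDN the fall was thus larger against DMSO than against MI-503. The antisense gene DDN-AS1 shares 6.99% of the DDN exon bases. Counting took no account of strand and left out fragments that overlapped several genes, so fragments from that stretch were counted for neither gene.

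MFAP4 (chr17:19383445-19387190, minus strand, 6 merged exons) was the most abundant of the 6. It stood at 117, 118, 113 and 104 CPM in DMSO replicates 1 to 4 and at 120, 125, 124 and 124 CPM in MI-503 replicates 1 to 4. Its level with both agents was 38.9, 54.5 and 40.9 CPM in replicates 1, 2 and 4. The combination lay below the 8 others, and the MI-503 libraries lay just above the DMSO libraries without overlap. The log2 fold change was -1.48 (SE 0.08) against MI-503 and -1.35 (SE 0.08) against DMSO. MI-503 alone gave 0.12 (SE 0.07), which did not pass (edgeR adjusted p = 0.18, range over alternatives 0.000698 to 0.416). It passed without combination replicate 1 (edgeR adjusted p = 0.0119) or without combination replicate 2 (edgeR adjusted p = 0.00859). MFAP4 shares 5.18% of its exon bases with MAPK7, which rose by 0.33 (SE 0.05, edgeR adjusted p = 0.000115) in the combination against MI-503.

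**Figure D1:**
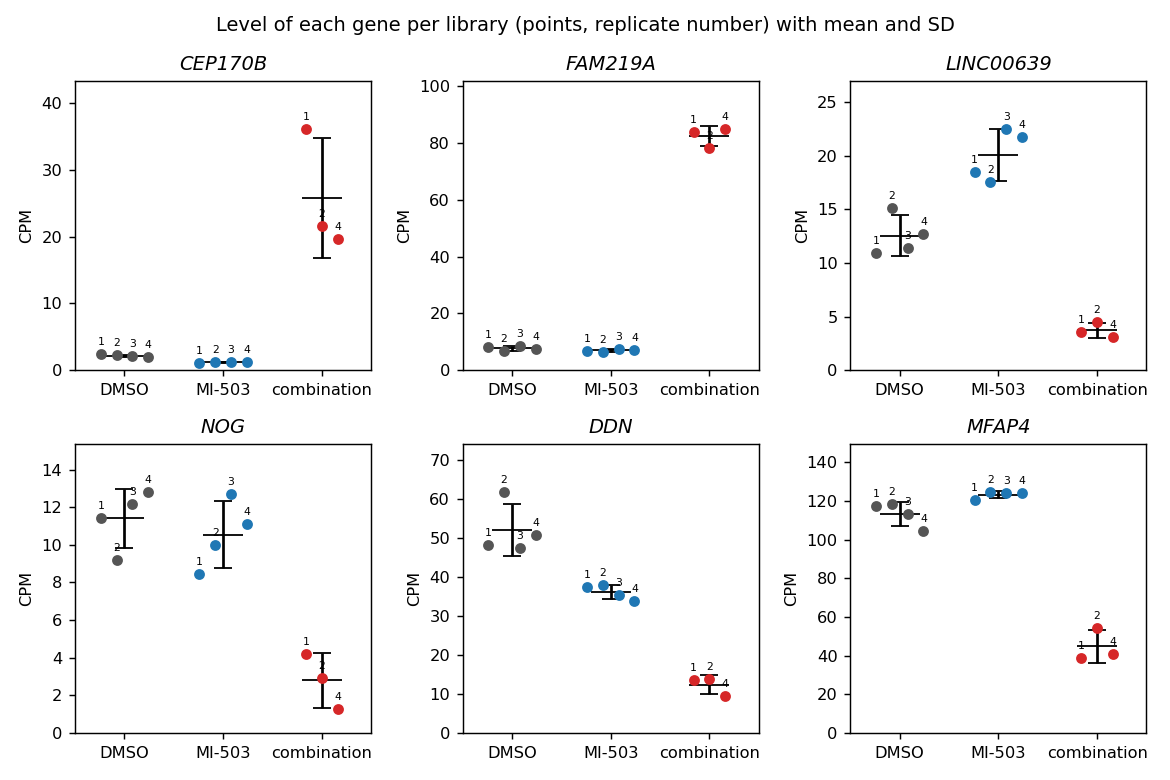
Level of each of the 6 genes in CPM (vertical axis, from 0) by group (horizontal axis). Points are libraries with their replicate number, and the black bar is the mean with the SD. For FAM219A the 3 combination libraries lie between 78.4 and 84.9 CPM, and for NOG they spread from 1.26 to 4.20 CPM.

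In MI-503 against DMSO, 3 of the 6 genes passed (CEP170B, LINC00639 and DDN), beside 51.4% of all tested genes, so the share was near the background. The MI-503 libraries also stand in the contrast that chose the genes. For 4 of the 6 the MI-503 and DMSO libraries did not overlap, beside 50.3% of all tested genes. In the combination against MI-503 all 6 had groups that did not overlap, which the choice of genes fixed and from which nothing is read. There 47.6% of all tested genes had groups that did not overlap. In the combination against DMSO all 6 again had groups that did not overlap, beside 60.5% of all tested genes, and that comparison shares the combination libraries with the one that chose them.

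**Figure D2:**
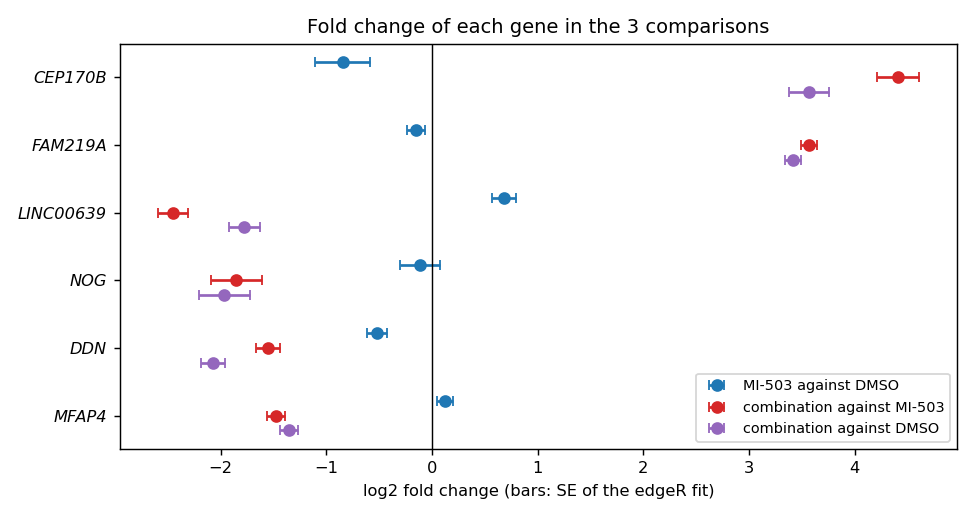
Log2 fold change of each gene (horizontal axis) in the 3 comparisons, with bars of 1 SE from the edgeR fit. CEP170B stands at -0.84 in MI-503 against DMSO and at 4.41 in the combination against MI-503, and LINC00639 at 0.68 and -2.45. Both comparisons share the MI-503 libraries.

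By size of change these genes stood at the top only above a floor on expression, and not without exception. Among the 10041 tested genes that averaged 5 CPM or more, CEP170B and FAM219A had ranks 2 and 3 by rise in the combination against MI-503. CEP170B cleared that floor only through the combination (means of 2.19, 1.21 and 25.8 CPM in DMSO, MI-503 and the combination). Its rank above the floor thus depends on the rise itself. Rank 1 was HMOX1, the heme-degrading enzyme heme oxygenase 1, at 6.50 (SE 0.69). Rank 4 was KLF2, a transcription factor, at 2.96 (SE 0.14). By fall, LINC00639, NOG, DDN and MFAP4 had ranks 1, 2, 3 and 5. Rank 4 was TERT, the catalytic subunit of telomerase, at -1.55 (SE 0.18), and rank 6 was GPR84 at -1.44 (SE 0.12). Without the floor, among all 14683 tested genes, CEP170B and FAM219A had ranks 16 and 24 by rise, and LINC00639, NOG, DDN and MFAP4 had ranks 4, 13, 44 and 56 by fall.

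**Figure D3:**
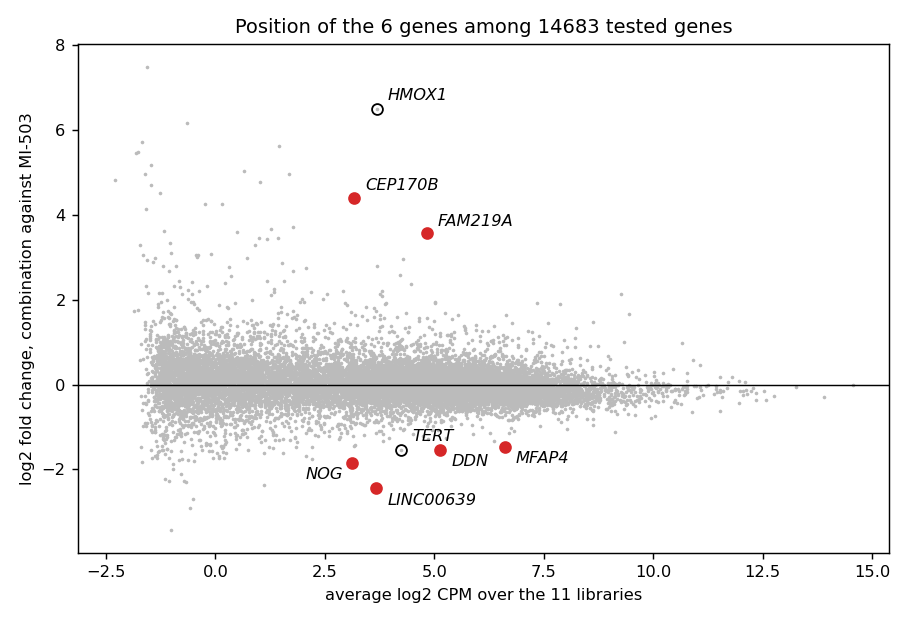
Log2 fold change of the combination against MI-503 (vertical axis) against average log2 CPM over the 11 libraries (horizontal axis) for all tested genes (grey). Filled points are the 6 genes and open points are HMOX1 (6.50) and TERT (-1.55), which rank among them by size.

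Compared per kb of exon, the 6 genes changed places between treatments. In DMSO, mean levels ran from 0.246 CPM per kb for CEP170B (above 12.1% of tested genes) to 58.7 CPM per kb for MFAP4 (above 93.3%). In the combination FAM219A, at 22.6 CPM per kb, came level with MFAP4, at 23.2 CPM per kb. These 2 levels differed by less than the spread of MFAP4 between libraries. CEP170B (2.91 CPM per kb) and DDN (2.7 CPM per kb) also lay within their spread of each other in the combination, although DDN had stood far above CEP170B in DMSO (11.4 CPM per kb). LINC00639 ended lowest, at 0.864 CPM per kb.

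Within the combination the genes differed in spread. NOG had an SD of log2 CPM above that of 99.3% of 1025 genes of like level, and CEP170B above that of 98.9% of 2312 genes. MFAP4 lay above 95.8% and DDN above 92.4% of genes of like level. The spread of NOG was also wide in DMSO (above 94.4%) and in MI-503 (above 99.0%), which was not particular to NOG. LINC00639 lay above 95.0% in DMSO, 97.8% in MI-503 and 68.5% in the combination. DDN lay above 99.3% in DMSO and 68.8% in MI-503. FAM219A, with a ratio of highest to lowest library of 1.08, lay above only 35.8% of 2039 genes of like level. For CEP170B replicate 1 was the high library, and for MFAP4 replicate 2 was, so that no single library was high in all genes. Without combination replicate 2, MFAP4 stood at -1.67 against MI-503.

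The exons of all 6 genes were rich in G and C, at 55.9% to 65.9%, above 73.2% to 97.8% of the 14664 tested genes with a value. The rule did not use this property. Genes of like G and C content had a median log2 fold change of 0.01 to 0.02 in the combination against MI-503, for each of the 6.

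Likeness of pattern was measured as the root mean square difference of log2 CPM, centred on DMSO, over the 11 libraries, which all genes share. Among 10035 candidates that averaged 5 CPM or more, FAM219A was closest to KLF2 (0.383) and NOL3 (0.460), and CEP170B to NOL3 (0.665) and KLF2 (0.675). KLF2 stood at 7.40 ± 1.21, 6.62 ± 0.549 and 52.0 ± 12.4 CPM in DMSO, MI-503 and the combination (mean ± SD). NOL3, an inhibitor of cell death, stood at 5.32 ± 0.569, 4.65 ± 0.702 and 32.8 ± 2.13 CPM. DDN was closest to GPR84 (0.240) and TERT (0.257). MFAP4 was closest to FNDC10 (0.192) and NAT8L (0.199), and LINC00639 to FNDC10 (0.469) and GABRA4 (0.513). NOG differed from LOC339862 by 0.413. Between the members, CEP170B and FAM219A differed by 0.479, and the 4 that fell by 0.424 (LINC00639 and MFAP4) to 0.759 (LINC00639 and DDN). This likeness is a description of levels.

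Around NOG, the BMP pathway was measured through the other genes of a list of ligands and receptors. Of 10 tested, 5 were lower and 1 was higher in the combination against MI-503, and the median log2 fold change was -0.37. Of all tested genes 23.8% were lower and 23.6% higher, 47.4% in all. BMP2, a ligand, stood at 17.7 CPM in DMSO, 17.4 CPM in MI-503 and 10.3 CPM in the combination, and fell by 0.74 (SE 0.09, edgeR adjusted p = 3.83e-06). ACVR2B, a type II receptor, fell by 0.47 (SE 0.09, edgeR adjusted p = 0.000493). ACVR1, a type I receptor, rose by 0.60 (SE 0.09, edgeR adjusted p = 6.07e-05).

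Of 11 tested inhibitors and transducers of BMP signals other than NOG, 3 (27.3%) were higher, near the 23.6% of all tested genes, and the other 8 did not pass. The median was 0.04. SMURF2, a ubiquitin ligase for SMAD proteins, changed by 0.18 (edgeR adjusted p = 0.0297), FSTL3, a secreted inhibitor, by 0.23 (edgeR adjusted p = 0.0331) and SMAD7, an inhibitory SMAD, by 0.30 (edgeR adjusted p = 0.0494). All 3 calls were lost with DESeq2. Of the 3 BMP target genes tested (ID1, ID2 and ATOH8), edgeR called 0 in the combination against MI-503, with 1 at an unadjusted p under 0.05, and DESeq2 and limma-voom called 0. The other 3 of the 6 listed targets, ID3, ID4 and HAMP, had 0 counts in all libraries. ID3 lies on 2 contigs of the annotation, where reads can be split. ID1 stood at 0.40 (SE 0.21), ID2 at -0.05 (SE 0.13) and ATOH8 at -0.51 (SE 0.24). In MI-503 against DMSO all 3 passed, beside 51.4% of all tested genes. ID1 and ID2 were lower (-0.54 and -0.40) with groups that overlapped, and ATOH8 was higher (1.95, SE 0.27) with groups that did not. ATOH8 was low throughout, at a mean of 0.514 CPM in DMSO (49 counts over the group) and 2.04 CPM in MI-503. DESeq2 called 2 of them, and 2 or 3 passed when single libraries were left out.

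Around MFAP4, 14 other elastic fibre genes were tested and 2 were higher and 2 lower in the combination against MI-503, beside 47.4% of all tested genes in either direction. The median was 0.07. EMILIN1, an elastic fibre glycoprotein, fell by 0.60 (SE 0.07, edgeR adjusted p = 1.44e-06) and FBN2, a fibrillin, by 0.37 (SE 0.09, edgeR adjusted p = 0.00258). LTBP4, which binds latent TGF-beta, rose by 0.37 (SE 0.09, edgeR adjusted p = 0.0028). The other microfibril-associated genes tested, MFAP1 and MFAP3, stood at -0.02 and 0.09 and did not pass.

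Around CEP170B, 11 genes of the subdistal appendage of the centriole and partners of CEP170 were tested, of which 6 were lower and 1 was higher in the combination against MI-503, with a median of -0.20, beside 23.8% of all tested genes lower and 23.6% higher. CNTRL, a centriolar protein, fell by 0.51 (SE 0.05, edgeR adjusted p = 7.44e-07). KIF2A, a microtubule-depolymerising kinesin, fell by 0.35 (SE 0.07, edgeR adjusted p = 0.000697), and ODF2, an appendage component, by 0.22 (SE 0.05, edgeR adjusted p = 0.00119). Around DDN, 5 partner and postsynaptic genes were tested, of which 2 were higher and 2 lower, beside the same shares of all tested genes. WWC1, which binds dendrin, fell by 0.75 (SE 0.09, edgeR adjusted p = 2.22e-06) and CD2AP, an adaptor of the slit diaphragm, by 0.33 (SE 0.07, edgeR adjusted p = 0.000822). SYNPO, an actin-binding protein of podocytes and dendrites, rose by 1.09 (SE 0.19, edgeR adjusted p = 0.000144).

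**Figure D4:**
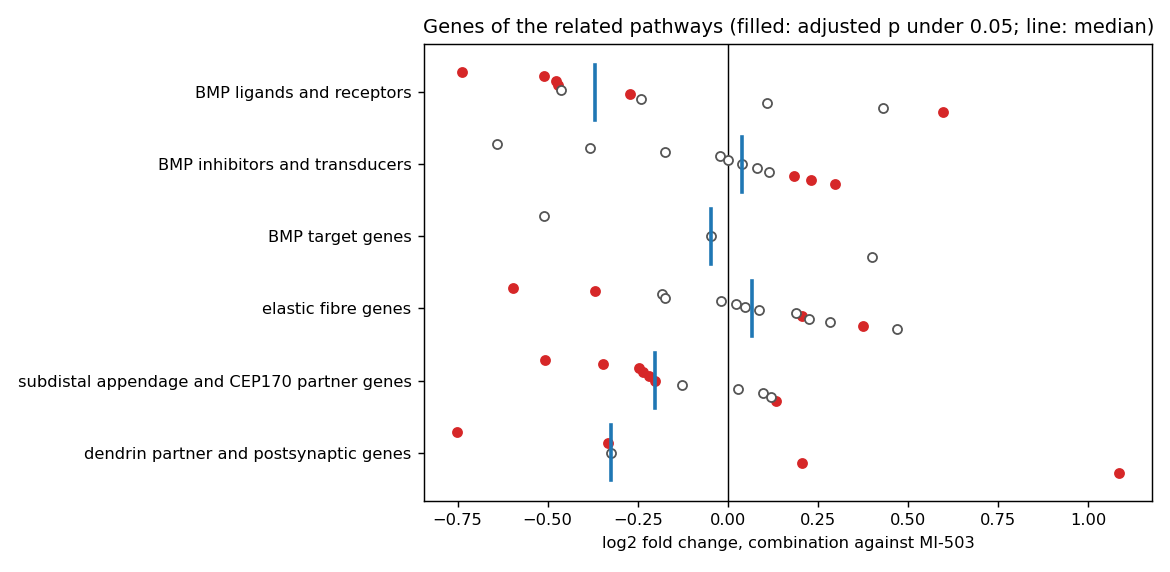
Log2 fold change of the combination against MI-503 (horizontal axis) for the tested genes of each related list, which leave out the 6 genes themselves. Filled points passed at an adjusted p under 0.05 and the line is the median, which runs from -0.37 for BMP ligands and receptors to 0.07 for elastic fibre genes.

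Neighbouring genes within 100 kb were measured to show whether a change extended along the chromosome. Of 44 neighbours 23 were tested, and 5 were higher and 6 lower in the combination against MI-503, a share of 47.8% beside 47.4% of all tested genes. Their log2 fold changes ran from -0.83 to 0.76, smaller in size than that of any of the 6 genes. The 6 were chosen for large changes in this same comparison, which largely fixes that difference, so nothing is read from it. For CEP170B the nearest tested neighbours on each side were PLD4, 27544 bases away, at -0.79 (SE 0.07, edgeR adjusted p = 7.56e-08), and LINC00638, at -0.46 (SE 0.20, edgeR adjusted p = 0.0637). PLD4 averaged 84.1, 156 and 90.6 CPM in DMSO, MI-503 and the combination. Its change in the combination against DMSO was 0.11 (SE 0.07) and did not pass (edgeR adjusted p = 0.176). For DDN, PRKAG1 lies 499 bases away and stood at -0.08 (SE 0.05, edgeR adjusted p = 0.208). WNT10B on the other side stood at -0.19 (SE 0.09, edgeR adjusted p = 0.0846), and DDN-AS1 fell by 0.63 (SE 0.23, edgeR adjusted p = 0.0331). For MFAP4, B9D1 fell by 0.25 (SE 0.08, edgeR adjusted p = 0.0107). No neighbour of LINC00639 or NOG was tested.

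Of the 3 tested neighbours of FAM219A, edgeR called 0 in the combination against MI-503, with 0 at an unadjusted p under 0.05 and 0 by DESeq2 or limma-voom. MYORG, the nearest of them, stood at 0.29 (SE 0.16, edgeR adjusted p = 0.146). Nearer still, DNAI1 starts 182 bases from FAM219A on the opposite strand and had 0 counts in the DMSO and MI-503 libraries, which allows up to 0.0321 and 0.0286 CPM over each group, and 3 counts in the combination. C9orf24, 242 bases beyond the other end of FAM219A, had 11, 13 and 48 counts in the 3 groups in the same order. Both were below the filter and were not tested, and C9orf24 and DNAI1 were singled out after their values were seen, for their closeness to FAM219A.

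**Figure D5:**
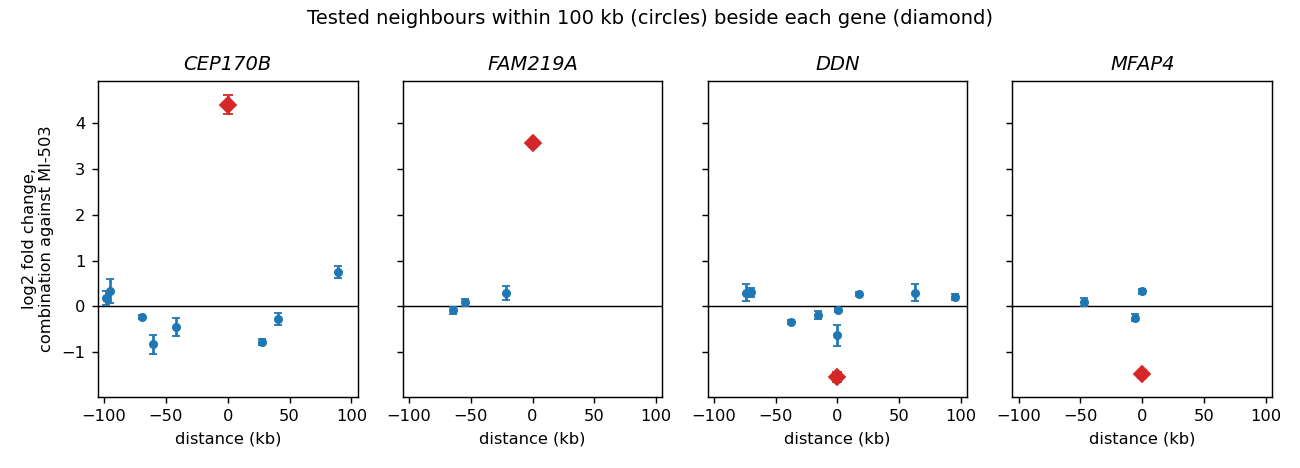
Log2 fold change of the combination against MI-503 (vertical axis, bars of 1 SE) of tested neighbours (circles) by distance in kb (horizontal axis), beside the gene itself (diamond). Neighbours run from -0.83 to 0.76, and the diamonds stand at 4.41, 3.57, -1.55 and -1.48.

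Since MFAP4 is known from stroma and DDN from neurons and podocytes, markers of those cells were read as summed CPM in each library. The 6 stromal markers summed to 0.439 to 1.29 CPM in DMSO, 0.696 to 1.11 CPM in MI-503 and 1.15 to 2.48 CPM in the combination. Most of these low sums was COL1A1 (a mean of 0.371, 0.384 and 0.809 CPM in the same order) and PDGFRB (0.359, 0.444 and 0.757 CPM). LUM went the other way (0.0934, 0.0638 and 0.0484 CPM), as did COL1A2, with 3 counts in all libraries together. COL3A1 had 1 count in all libraries together. The 5 neuronal markers summed to 6.18 to 6.45, 2.78 to 4.50 and 2.11 to 3.71 CPM in the same order, mostly SNAP25, while SYT1 and STMN2 had 1 count each.

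The podocyte markers summed to 93.5 to 102, 61.2 to 72.0 and 35.2 to 36.8 CPM, and fell in the same order as DDN. Most of that sum was WT1, a transcription factor that leukemia cells also express, with PODXL next. The podocyte-defining NPHS1 had 7 counts in all 11 libraries together. Of the erythroid and lymphoid markers, HBA2 and MS4A1 were at 0, and the lists summed to 0.0409 to 0.251 CPM and 1.30 to 2.89 CPM over all libraries. The part of these markers in the changes of DDN and MFAP4 was not tested.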

How the data were processed

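RNA of MOLM-13 cells (TruSeq RNA kit, a NovaSeq instrument, paired-end) was measured in 11 libraries, grouped by their labels. Per the file headers and the submitters' processing notes, the authors trimmed reads with Trimmomatic 0.39, aligned them with STAR 2.7.10a to hg38 and counted fragments over RefSeq exons with featureCounts 2.0.1 without regard to strand. The headers name filtered alignments, and the rule of that filter is not stated. The deposited values are raw counts per gene. Fragments that overlapped several genes were not counted, which lowers genes that share exons. Deposited DESeq2 tables (base mean, log2 fold change, SE, statistic, p-value and adjusted p) were not used.

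The analysis used edgeR 4.0.16 in R 4.3.3, with DESeq2 1.42.0 and limma 3.58.1 as alternatives, and matplotlib 3.10.9 for the plots. Genes passed filterByExpr (minimum count 10, minimum total 15), TMM factors scaled the totals, and 1 quasi-likelihood model with a mean per group was fitted to all 11 libraries. Tests were two-sided with Benjamini-Hochberg adjustment over 14683 genes, and a gene passed at an adjusted p under 0.05. The script was tested on simulated counts. Log2 CPM used a prior count of 0.5. A gene of like level lay within 0.5 log2 units, and one of like G and C content within 2 percentage points. Precision is limited by totals of 18.9 to 41.2 M counts and by 3 or 4 libraries a group, and limits on counts of 0 (3 counts over a group) cover counting error only.

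The 6 genes and the lists of related genes were chosen with earlier results of these data known. Named genes were the 6 members, their paralogs, the 2 genes of nearest pattern to each, up to 3 genes of each list with the smallest adjusted p in the combination against MI-503, and the nearest tested neighbour on each side. Some genes that these rules or the marker lists hold are not reported here. HMOX1, KLF2, TERT and GPR84 were named for their ranks after the values were seen, as were MFAP1, MFAP3, MAPK7, LYZ and FLT3. So were ID3, ID4 and HAMP, for their 0 counts. Alternatives were RLE and upper-quartile scaling, no filter and a stricter one, DESeq2, limma-voom, 2 groups only, the replicate number as a block, a threshold of 0.01, and each library left out. Promoters came from RefSeq.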

Additional observations from a re-analysis of the deposited data

Results flagged for a closer look

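Of 36 groups of 4 libraries (DMSO or MI-503, for the 6 genes, those nearest to them in pattern, the paralogs CEP170 and FAM219B, and BMP2), 1 had a library far from the rest by Dixon's criterion. MFAP4 stood at 120.3 CPM in MI-503 replicate 1, and the other 3 MI-503 libraries lay between 124.1 and 124.7 CPM, so that the gap was 0.869 of the range. Chance alone marks about 1 in 20 such groups.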

How the results depend on the processing

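Of 742 values recomputed over 38 results and 20 alternatives, 717 kept direction and side of the threshold (or stayed close to the main value). Although 0 reversed direction, these totals do not measure robustness. Many results are counts of calls, which have no direction to reverse. Fold changes of the chosen genes in the combination were large against MI-503, which the choice fixed, and against DMSO, which shares the combination libraries. Their smaller fold changes in MI-503 against DMSO could more readily have reversed, and each gene kept its sign there. The alternatives reuse mostly the same libraries, so a kept sign is weak evidence of a direction. For NOG the values ran from -0.21 to -0.02 when single libraries were left out (edgeR adjusted p 0.43 to 0.937), and no direction is read from them. For MFAP4 in MI-503 against DMSO, the difference passed with upper-quartile scaling (0.18), with no filter (0.14) and with 2 groups only (0.17), and ran from 0.083 to 0.17 when single libraries were left out. For CEP170B in MI-503 against DMSO, limma-voom gave -0.84, which did not pass, and for FAM219A the values without 1 library ran from -0.22 to -0.11. Leaving out single libraries moved CEP170B from 4.04 to 4.54 against MI-503 and from 3.24 to 3.73 against DMSO, and MFAP4 from -1.67 to -1.41 against MI-503. Called BMP ligands and receptors in MI-503 against DMSO were 4 with 2 groups only, against 2, and 2 to 4 without single libraries. In the combination against MI-503, called BMP inhibitors and transducers were 0 with DESeq2 and 0 at a threshold of 0.01, against 3, and 1 to 3 without single libraries. Called BMP targets were 1 under the replicate block and 1 when no gene was filtered out, against 0, and 0 to 1 without single libraries. Called elastic fibre genes in MI-503 against DMSO were 4 at 0.01, against 7, and 4 to 7 without single libraries. At 0.01, called subdistal appendage genes were 4, against 7, and called neighbours 7, against 11. Apart from the 0.01 threshold and the use of fewer libraries, the cause was not tested. Upper-quartile scaling raised the share of higher calls in MI-503 against DMSO from 42.9% to 54.2%, and the median over all tested genes went from -0.03 to 0.03. Same-numbered libraries of different groups had correlations of -0.10 to 0.14, with 1 of 10 over 0.1. Libraries with different numbers had -0.13 to 0.12, with 1 of 30 over 0.1. No pairing by number was seen, and correlations this weak cannot exclude one. Under the block called BMP inhibitors and transducers in the combination against MI-503 were 2, against 3, and no count of calls other than that of BMP targets moved by over 1.5 times. Depth limits CEP170B most, with 24 to 44 fragments in MI-503.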
